A study of Mus musculus with 8 samples.

Results

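Transcripts of 10 genes that mark pericytes and vascular smooth muscle, together called mural cells, were followed in RNA sequencing of brain endothelial cells from mouse embryos with and without a working copy of Flvcr2, a gene for a membrane transporter. The members were taken by name from the 24421 gene rows of the deposited counts: Pdgfrb, Rgs5, Cspg4, Kcnj8, Abcc9, Des, Notch3, Acta2, Tagln and Myh11. All 10 had a row, and 9 passed the filter on low counts; Myh11 did not. The libraries were 4 from Flvcr2 knockout and 4 from Flvcr2 heterozygous embryos, all of the C57Bl6 strain at E14.5 (embryonic day). Every library therefore came from mice that carry at least 1 mutant allele, which makes the cells produce GFP; wild-type cells were not part of the comparison. Cells positive for GFP and for CD31, a surface protein of endothelium, had been sorted from brain, at 2000 to 5000 cells per library. Nothing in the labels ties each library to an embryo of its own, so the p-values speak only of the spread among these 8 libraries, which may be technical.

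Mural cells wrap around capillaries and larger vessels and share their basement membrane. Pericytes sit on capillaries and are dense in brain, where endothelial cells attract them with the growth factor PDGF-B. Smooth muscle cells surround arteries and veins and carry a contractile apparatus. A sort for CD31 is meant to leave both behind, and in bulk counts fewer mural cells and less RNA per mural cell cannot be told apart.

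The libraries held 12.1 to 35.9 M counts in knockout and 9.11 to 22.6 M in heterozygous cells, and levels are given as CPM (counts scaled to a common library size, with TMM scaling factors). Across all genes, 749 were called higher and 544 lower in knockout (edgeR quasi-likelihood test, Benjamini-Hochberg adjusted p under 0.05, 13540 genes tested). Endothelial marker genes were abundant in every library: the sum of 15 such genes ran from 10072 to 14135 CPM in knockout and from 7379 to 12839 CPM in heterozygous libraries. Of these, 1 was called, Emcn, a sialomucin of endothelium, which rose in knockout by 1.19 ± 0.17 on the log2 scale (SE; edgeR adjusted p = 0.00321). Flvcr2 itself, listed under the older symbol Mfsd7c, averaged 301 ± 73.6 CPM in knockout and 427 ± 124 CPM in heterozygous libraries (SD, n = 4 each) and was not called (edgeR adjusted p = 0.209). The sources used here do not give the deleted part of the gene, so this level does not check the genotype labels. Knockout 1 and heterozygous 2 had 1 and 0 counts of Xist beside 914 and 331 counts of the Y-linked gene Ddx3y. Heterozygous 3 and 4 held both, with 442 and 861 counts of Xist beside 28 and 56 of Ddx3y. Ddx3y was at 0, 0, 6 and 0 counts in knockout 2, 3 and 4 and heterozygous 1. The source of the mixed counts was not tested.

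The promoter windows of 3 members are shown first, because these genes carry the contrasts described later. Kcnj8 and Abcc9 are neighbours on chromosome 6 and encode the subunits of a single channel, and their counts ran differently across the libraries, and Acta2 is the classical smooth muscle marker. The windows are RefSeq sequences of GRCm38.p6, the same build as the mm10 named in the submitters' processing notes, and reach from 250 bases before to 50 bases after the gene's start. They lie at chr6:142571565-142571864 (minus strand) for Kcnj8, chr6:142702225-142702524 (minus strand) for Abcc9 and chr19:34255324-34255623 (minus strand) for Acta2. Capitals mark matches on either strand to TGGGAA, the core of the motif bound by RBPJ, the DNA-binding partner of Notch receptors, or to the CArG box, the site of the muscle regulator SRF, with 1 mismatch allowed in its outer bases.
Kcnj8: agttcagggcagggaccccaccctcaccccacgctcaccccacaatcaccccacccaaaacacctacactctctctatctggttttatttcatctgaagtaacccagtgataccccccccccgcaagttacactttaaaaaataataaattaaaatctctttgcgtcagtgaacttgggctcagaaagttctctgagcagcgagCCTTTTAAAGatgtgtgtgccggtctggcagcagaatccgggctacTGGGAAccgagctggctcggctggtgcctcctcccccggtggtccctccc
Abcc9: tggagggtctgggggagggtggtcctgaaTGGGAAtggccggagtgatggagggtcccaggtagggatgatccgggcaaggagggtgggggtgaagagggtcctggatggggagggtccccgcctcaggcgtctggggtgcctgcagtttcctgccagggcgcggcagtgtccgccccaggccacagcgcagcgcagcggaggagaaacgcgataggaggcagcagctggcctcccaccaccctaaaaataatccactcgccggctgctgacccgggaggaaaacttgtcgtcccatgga
Acta2: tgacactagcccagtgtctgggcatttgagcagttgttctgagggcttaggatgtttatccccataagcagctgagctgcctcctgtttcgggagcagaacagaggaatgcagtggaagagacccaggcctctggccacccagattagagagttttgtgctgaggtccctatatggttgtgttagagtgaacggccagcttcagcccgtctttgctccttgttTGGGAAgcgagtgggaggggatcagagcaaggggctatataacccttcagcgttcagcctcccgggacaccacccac
TGGGAA was found in 3 of the 7 member windows in the table, those of Kcnj8, Abcc9 and Acta2, and in 25.6% of the 32851 mouse windows. No member window held an exact CArG box, which 1.63% of all windows hold. With the mismatch allowed in the outer bases, the CArG box matched in 2 member windows, Kcnj8 and Cspg4, against 13.9% of all windows. Mismatches among the inner A and T bases were not searched. The Acta2 window holds ccctatatgg and ccttgttTGG, each with 1 such inner mismatch, so it is not free of CArG-like sequence. Such matches describe the letters and say nothing about whether a factor binds.

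Levels between genes were compared as CPM per kb of exon, with exon lengths and gene positions (given as start to end below, GRCm38) from GENCODE M21. In heterozygous libraries Kcnj8 was the most abundant member per length at 29.4 ± 11 CPM per kb, followed by Rgs5 at 10.2 ± 4.15, Acta2 at 7.25 ± 12.2 and Pdgfrb at 7.09 ± 3.04 (SD, n = 4 each). Tagln, Des, Abcc9 and Cspg4 lay between 1.52 and 2.83 CPM per kb, Notch3 was at 0.732 ± 0.242, and Myh11 was at 0. In knockout libraries the order was Kcnj8 at 11.1 ± 14.7 CPM per kb, then Tagln at 2.43 ± 1.5, Pdgfrb at 2.06 ± 2.2 and Rgs5 at 2.0 ± 2.31. Apart from the lead of Kcnj8 over the others in heterozygous libraries, most neighbours in either order did not differ beyond their spread. The place of Acta2 rests on heterozygous 1: it ranked first in that library and 7th to 9th in the other 3 heterozygous libraries.

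All members together summed to 23.3, 66.6, 178 and 24.5 CPM in knockout libraries 1 to 4, against 174, 242, 213 and 281 CPM in heterozygous libraries 1 to 4. Knockout 3 lay just above the lowest heterozygous library, and the other 3 knockout libraries lay far below all heterozygous ones. Set against the endothelial marker genes of the same library, the members gave 1.65, 6.62, 15.3 and 1.90 counts per 1000 endothelial counts in knockout and 23.6, 21.0, 16.6 and 25 in heterozygous libraries, so these ranges did not overlap. The ratio also depends on the endothelial sum, which was 7379 CPM in heterozygous 1 and 11640 CPM in knockout 3. Of the 15 endothelial genes, 4 lay higher in all knockout than in all heterozygous libraries (9.7% of all genes). The 7 pericyte members (Pdgfrb, Rgs5, Cspg4, Kcnj8, Abcc9, Des and Notch3) made up most of the sum, at 18.8 to 169 CPM in knockout and 106 to 277 CPM in heterozygous libraries.

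Of the 9 tested members 2 fell in knockout, Cspg4 and Des, and 0 rose, where 4.02% of all tested genes were called lower and 5.53% higher. All 9 had a negative fitted log2 fold change, as did 52.1% of all tested genes. The median over the 9 was -1.79, beside -0.03 over all tested genes. The knockout libraries lay entirely below the heterozygous ones for the same 2 members, and for 7.9% of all genes.

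**Figure D1:**
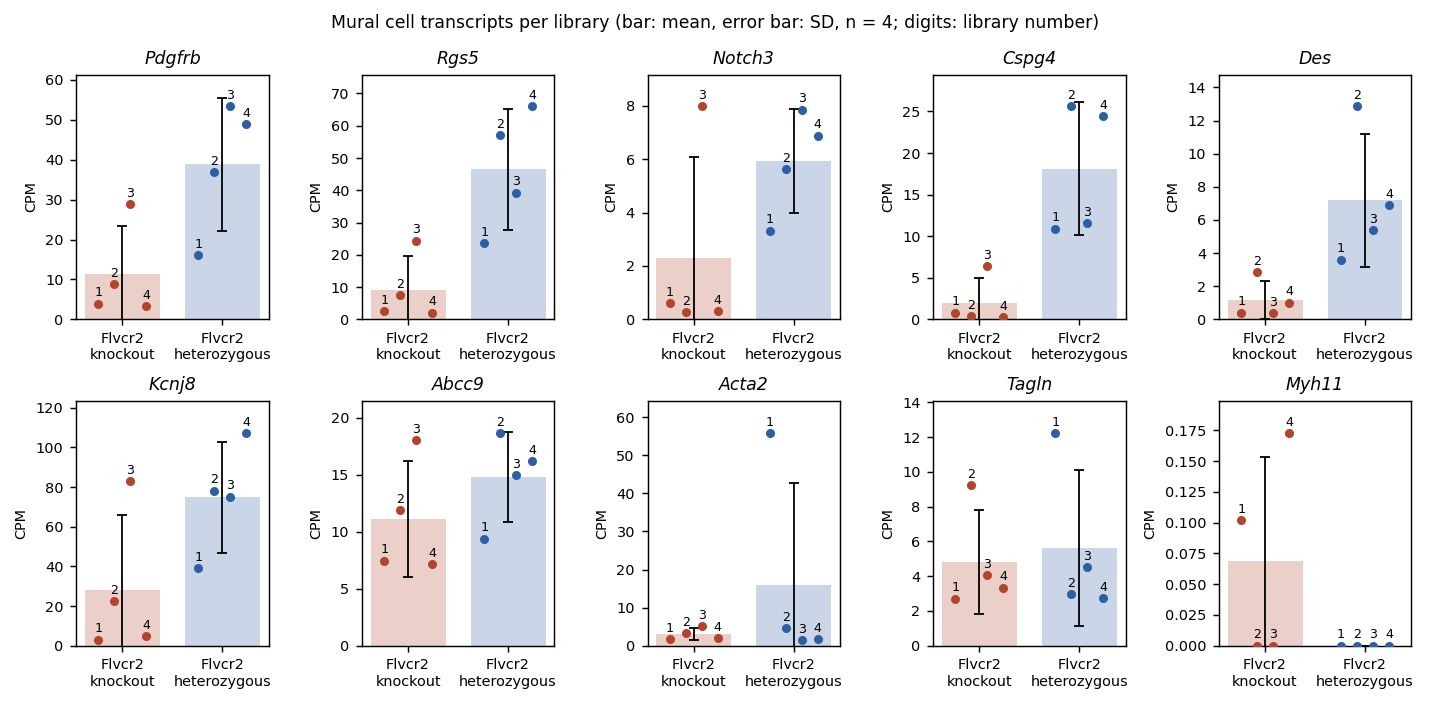
CPM of the 10 mural transcripts in each library, 1 panel per gene with its own linear axis from 0; points are libraries with their number, bars the mean and error bars the SD (n = 4 per genotype). Knockout 3 stands above the other knockout libraries for Pdgfrb, Rgs5, Notch3, Cspg4, Kcnj8 and Abcc9, and heterozygous 1 stands apart for Acta2, at 55.9 CPM against 1.45 to 5.18 CPM in the other 7 libraries.

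Among the receptors, Pdgfrb encodes the receptor through which endothelial PDGF-B recruits pericytes (chromosome 18, 61045150 to 61085061). It had 3.94, 8.80, 29.0 and 3.38 CPM in knockout libraries 1 to 4, against 16.1, 37.0, 53.4 and 48.9 CPM in heterozygous libraries 1 to 4. Knockout 3 lay within the heterozygous range and the other 3 knockout libraries below it. The means were 11.3 ± 12.1 CPM in knockout and 38.8 ± 16.6 CPM in heterozygous libraries (SD, n = 4 each). The fitted log2 difference, -1.79 ± 0.65 (SE), missed the threshold (edgeR adjusted p = 0.111). Notch3, the Notch receptor of mural cells (chromosome 17, 32120820 to 32166852), had 0.613, 0.261, 7.97 and 0.317 CPM in knockout and 3.32, 5.63, 7.85 and 6.88 CPM in heterozygous libraries. Its highest level of all was in knockout 3, while knockout 1, 2 and 4 rested on 12, 3 and 11 counts. Notch3 shares 488 exon bases with an antisense gene. The difference of -1.37 ± 0.99 on the log2 scale did not pass (SE; edgeR adjusted p = 0.422).

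Rgs5 encodes a regulator of G protein signalling and is among the most used pericyte markers (chromosome 1, 169655501 to 169695813). It had 2.45, 7.40, 24.4 and 2.08 CPM in knockout and 23.5, 57.0, 39.3 and 66.0 CPM in heterozygous libraries. The genotypes overlapped only by knockout 3, which exceeded heterozygous 1 by a small margin. The log2 fold change was -2.36 ± 0.71 (SE; edgeR adjusted p = 0.0614), short of the threshold.

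Cspg4 encodes the surface proteoglycan NG2 (chromosome 9, 56865033 to 56899870), made by pericytes and also by oligodendrocyte precursors. It fell in knockout, with 0.818, 0.436, 6.38 and 0.317 CPM against 10.9, 25.6, 11.5 and 24.5 CPM in heterozygous libraries. All knockout libraries lay below all heterozygous ones, and knockout 2 held 5 counts. The means were 1.99 ± 2.93 CPM in knockout and 18.1 ± 7.99 CPM in heterozygous libraries (SD, n = 4 each), and the fitted log2 difference was -3.19 ± 0.88 (SE; edgeR adjusted p = 0.0451). With each library removed in turn, the call was lost 7 times out of 8 and held without knockout 3, where the log2 fold change was -5.10 ± 0.55 (SE; edgeR adjusted p = 0.00166); over the 8 fits it ran from -5.10 to -2.81. The 6 markers of oligodendrocyte precursors summed to 2.35 to 13.3 CPM in knockout and 9.03 to 44.9 CPM in heterozygous libraries, and of 5 tested 0 were called, with all 5 fitted lower in knockout (median log2 fold change -1.89). The most abundant were the proteoglycan gene Cspg5, at 3.06 ± 1.41 CPM in knockout and 11.3 ± 6.72 CPM in heterozygous libraries, and the transcription factor gene Olig1, at 2.55 ± 2.62 CPM and 6.81 ± 5.34 CPM (SD, n = 4 each). Their part in the Cspg4 difference was not tested.

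Des encodes desmin, an intermediate filament of pericytes and of all muscle (chromosome 1, 75360329 to 75368579). It fell in knockout, with 0.409, 2.87, 0.399 and 1.01 CPM against 3.61, 12.9, 5.38 and 6.88 CPM in heterozygous libraries. Again no knockout library reached a heterozygous one, but unlike the other pericyte members Des was lowest in knockout 3. The log2 fold change was -2.63 ± 0.74 (SE; edgeR adjusted p = 0.0496). With each library removed in turn, the call held 1 time out of 8, without knockout 2, and the fitted value lay between -3.52 and -2.19. Des shares 220 exon bases with an annotated antisense gene, and the sources used here do not give the strand setting of the counting. Of the defining skeletal muscle genes, Acta1 (skeletal actin) averaged 0.597 CPM in knockout and 0.671 CPM in heterozygous libraries, and Myl1 was at 0 counts in all 8. The sum of the 10 striated muscle genes was 26.9 to 39.8 CPM in knockout and 15.5 to 27.6 CPM in heterozygous libraries, mostly from the light chain Myl4 and the troponin Tnnt1, and 0 of 4 tested were called.

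Kcnj8 and Abcc9 encode the pore (Kir6.1) and the sulphonylurea receptor subunit (SUR2) of the ATP-sensitive potassium channel of pericytes and smooth muscle. Kcnj8 (chromosome 6, 142564837 to 142571614) had 3.07, 22.5, 83.0 and 4.67 CPM in knockout and 39.1, 78.2, 75.1 and 107 CPM in heterozygous libraries. Its knockout libraries differed from each other by up to 27.1-fold and its heterozygous libraries by up to 2.74-fold. Knockout 3 exceeded 3 of the 4 heterozygous libraries, and the log2 fold change of -1.41 ± 0.84 did not pass (SE; edgeR adjusted p = 0.326). Abcc9 (chromosome 6, 142587862 to 142702315) was the flattest pericyte member, with 7.46, 11.9, 18.1 and 7.16 CPM in knockout and 9.40, 18.7, 15.0 and 16.2 CPM in heterozygous libraries. The genotypes overlapped widely, and the log2 fold change was -0.41 ± 0.36 (SE; edgeR adjusted p = 0.511). In CPM, not scaled to length, Abcc9 was higher than Kcnj8 in knockout 1 and knockout 4 and lower in the other 6 libraries. Abcc9 has 8373 exon bases and Kcnj8 2548. Per kb of exon, Kcnj8 was higher in every library, at 1.20 against 0.891 CPM per kb in knockout 1 and 1.83 against 0.855 in knockout 4. Of the summed member CPM, Abcc9 made up 32.0%, 17.9%, 10.1% and 29.2% in knockout and 5.4% to 7.71% in heterozygous libraries. Abcc9 shares 158 exon bases with an antisense gene. Of 7 tested relatives of the member receptors and channel subunits, 1 fell and 0 rose (median log2 fold change -0.88), beside 4.02% and 5.53% of all tested genes. Kcnj11, the Kir6.2 pore of the related channel, fell in knockout (edgeR adjusted p = 0.0160). It had 0 counts in all knockout libraries, against 17, 8, 18 and 48 in heterozygous libraries, and passed the low-count filter only through the latter. With counts pooled over each group, 91 in heterozygous, and 3 counts as the knockout floor, the pooled level was at least 41.1-fold lower. That figure leaves out the spread between libraries.

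The contractile members behaved differently. Acta2, the smooth muscle actin (chromosome 19, 34241090 to 34255590), had 1.74, 3.22, 5.18 and 2.05 CPM in knockout and 55.9, 4.57, 1.45 and 1.78 CPM in heterozygous libraries. The level of heterozygous 1, 589 counts, stood alone; the other 3 heterozygous libraries lay among the knockout ones. The log2 fold change was -2.38 ± 1.06 (SE; edgeR adjusted p = 0.188) with all libraries and 0.24 without heterozygous 1. Tagln, the actin-associated protein SM22 (chromosome 9, 45929619 to 45936058), had 2.71, 9.23, 4.04 and 3.35 CPM in knockout and 12.2, 2.97, 4.52 and 2.72 CPM in heterozygous libraries. Heterozygous 1 was again the highest, with knockout 2 next, and the log2 fold change of -0.22 ± 0.60 turned to 0.49 without heterozygous 1 (edgeR adjusted p = 0.855 and 0.675). Tagln shares 1349 of its 1988 exon bases with overlapping genes, including Pcsk7 on the opposite strand, so its counts are uncertain. Myh11, the smooth muscle myosin heavy chain (chromosome 16, 14194535 to 14291372), had 2, 0, 0 and 6 counts in knockout and 0 in each heterozygous library, where 3 counts would be 0.128 to 0.319 CPM. The 6 counts of knockout 4 are 0.173 CPM, with an exact 95% Poisson interval of 0.0635 to 0.377 CPM that covers counting error only, since the libraries carry no molecular identifiers. No difference in Myh11 was detectable at this depth.

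The other contractile genes ranged widely in heterozygous 1; those given here were chosen after their values were seen. Myh11 was at 0, Cnn1 (calponin) was at 0.475 CPM and at 0 in the other 7 libraries, and Actg2, the enteric actin, was at 3.61 CPM, above the 0 to 0.640 CPM of the other 7. Further genes of the contractile list were abundant in it, with Smtn (smoothelin) at 313 CPM, Tpm1 (tropomyosin) at 147, Myl9 at 97.8, Cald1 (caldesmon) at 76.8 and Mylk (myosin light chain kinase) at 40.8, and all 5 lay within or below the range of the other 3 heterozygous libraries. The same library had the highest sum of 12 neuron markers, 1758 CPM, against 90.0 to 263 CPM in knockout and 274 to 757 CPM in the other heterozygous libraries. It also had the lowest endothelial sum. Whether these values bear on Acta2 was not tested.

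Knockout 3 was the library on which the pericyte result turned. It was the highest knockout library for 6 of the 7 pericyte members, Des being the exception, and it reached the heterozygous range or exceeded it for 5: Pdgfrb, Rgs5, Kcnj8, Abcc9 and Notch3. Knockout 1, 2 and 4 all lay below every heterozygous library for 6 of the 7, and for 12.3% of all tested genes. Knockout 3 was singled out after its values in these members were seen. Leaving it out therefore favours separation for them, and the share over all genes is not a like comparison. The same limit applies to the fit without knockout 3. In that fit 5 members fell and 0 rose, where 4.6% of all genes tested were called lower. These were Cspg4, Rgs5, Pdgfrb, Notch3 and Kcnj8, with log2 fold changes of -5.10, -3.57, -2.86, -3.86 and -2.91 (edgeR adjusted p = 0.00166, 0.00656, 0.00951, 0.00864 and 0.0266). Des was no longer called in that fit (edgeR adjusted p = 0.0792). Without any other library, at most 1 member was called. Fibroblast genes, some of which mural cells also express, moved with knockout 3: the 9 genes summed to 129, 172, 615 and 110 CPM in knockout and 434, 229, 417 and 246 CPM in heterozygous libraries. Of 8 tested, 0 were called (median log2 fold change -0.56). Foxc1, a mesenchymal transcription factor, was at 73.9 ± 12.3 CPM in knockout and 75.7 ± 15.2 CPM in heterozygous libraries, and Col3a1, a fibrillar collagen, averaged 82.6 ± 109 CPM in knockout and 108 ± 38.1 CPM in heterozygous libraries (SD, n = 4 each). Their part in the level of knockout 3 was not tested.

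**Figure D2:**
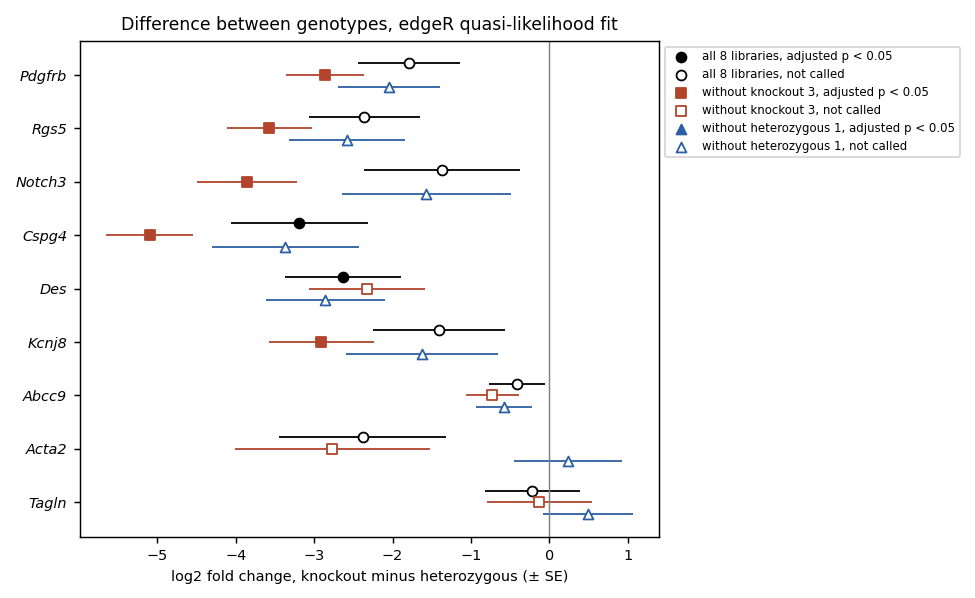
Fitted log2 fold change of the 9 tested members, knockout minus heterozygous, with its SE, for all 8 libraries (circles), without knockout 3 (squares) and without heterozygous 1 (triangles); filled symbols have an edgeR adjusted p under 0.05. Without knockout 3 the values of Notch3 and Kcnj8 move to -3.86 and -2.91, and without heterozygous 1 those of Acta2 and Tagln move to 0.24 and 0.49.

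The likeness of pattern was measured as the root mean square difference between centred log2 CPM profiles over the 8 libraries, where 0 means the same pattern. The nearest pair was Rgs5 and Kcnj8 at 0.48, followed by Pdgfrb with Rgs5 at 0.50 and with Kcnj8 at 0.58. Pairs among Pdgfrb, Rgs5, Cspg4, Kcnj8 and Notch3, a group formed after the values were seen, lay between 0.48 and 1.21. Acta2 or Tagln paired with a pericyte member lay between 0.98 and 2.49. Kcnj8 and Abcc9, the subunits of the same channel, were 1.38 apart, close to the median of 1.45 over all 36 pairs. Of the 10380 other genes with a mean of at least 5 CPM, the nearest to the median member profile included Mfap2, a microfibril protein, at 0.22, Cox4i2, an alternative subunit of cytochrome c oxidase, at 0.31, Myl9, a myosin light chain of smooth muscle, at 0.36, and Col26a1, a collagen, at 0.36. Cox4i2 also belongs to the wider mural set described next, and Myl9 to the contractile list. Of these, Mfap2 fell, with 62.3, 165, 314 and 49.97 CPM in knockout and 482, 522, 688 and 808 CPM in heterozygous libraries (log2 fold change -2.08 ± 0.51, SE; edgeR adjusted p = 0.0294). Cox4i2, Myl9 and Col26a1 were not called (edgeR adjusted p from 0.0624 to 0.0859).

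A wider set of 22 mural genes outside the members had 21 tested genes. Of these, 6 fell and 1 rose, where 4.02% of all tested genes were called lower and 5.53% higher, and the median log2 difference was -1.28. All knockout libraries lay below all heterozygous ones for 8 genes (7.9% of all genes), and above them for 2, Mcam and the transcription factor gene Foxf2 (9.7% of all genes). The largest fall was that of Tbx18, a transcription factor of mural cells, with 0.358, 0.0871, 0.228 and 0.375 CPM in knockout and 6.08, 2.97, 4.23 and 3.5 CPM in heterozygous libraries (log2 fold change -3.92 ± 0.70, SE; edgeR adjusted p = 0.00808). Tbx18 was as low in knockout 3 as in the other knockout libraries, with 7, 1, 4 and 13 counts in knockout libraries 1 to 4. Art3, an ADP-ribosyltransferase family gene, fell to 1.70 ± 0.536 CPM in knockout, against 9.11 ± 3.46 CPM in heterozygous libraries (SD, n = 4 each; edgeR adjusted p = 0.00934). Gucy1a1, a subunit of the nitric oxide receptor guanylate cyclase, fell by 2.43 on the log2 scale (edgeR adjusted p = 0.0176). The other subunit Gucy1b1, the cGMP phosphodiesterase Pde5a and the transcription factor Ebf1, named after their values were seen, were the remaining genes that fell, with log2 fold changes of -2.44, -1.85 and -0.76 (edgeR adjusted p = 0.0495, 0.0273 and 0.0350).

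The gene that rose was Mcam, the adhesion molecule CD146 of mural cells and of endothelium, with 992, 513, 862 and 807 CPM in knockout and 141, 262, 307 and 251 CPM in heterozygous libraries (log2 fold change 1.72 ± 0.26, SE; edgeR adjusted p = 0.00390). All knockout libraries lay above all heterozygous ones. Vtn, the pericyte matrix protein vitronectin and also named after its values were seen, had 31.9, 103, 412 and 16.4 CPM in knockout and 197, 181, 191 and 235 CPM in heterozygous libraries, with its highest level in knockout 3. Knockout 3 was the highest knockout library for 18 of the 21 tested genes and reached at least the lowest heterozygous library for 13. Without knockout 3, 15 of the wider set fell and 1 rose, where 4.6% of all genes tested in that fit were called lower. Since knockout 3 was singled out after its mural values were seen, that share is not a like comparison.

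**Figure D3:**
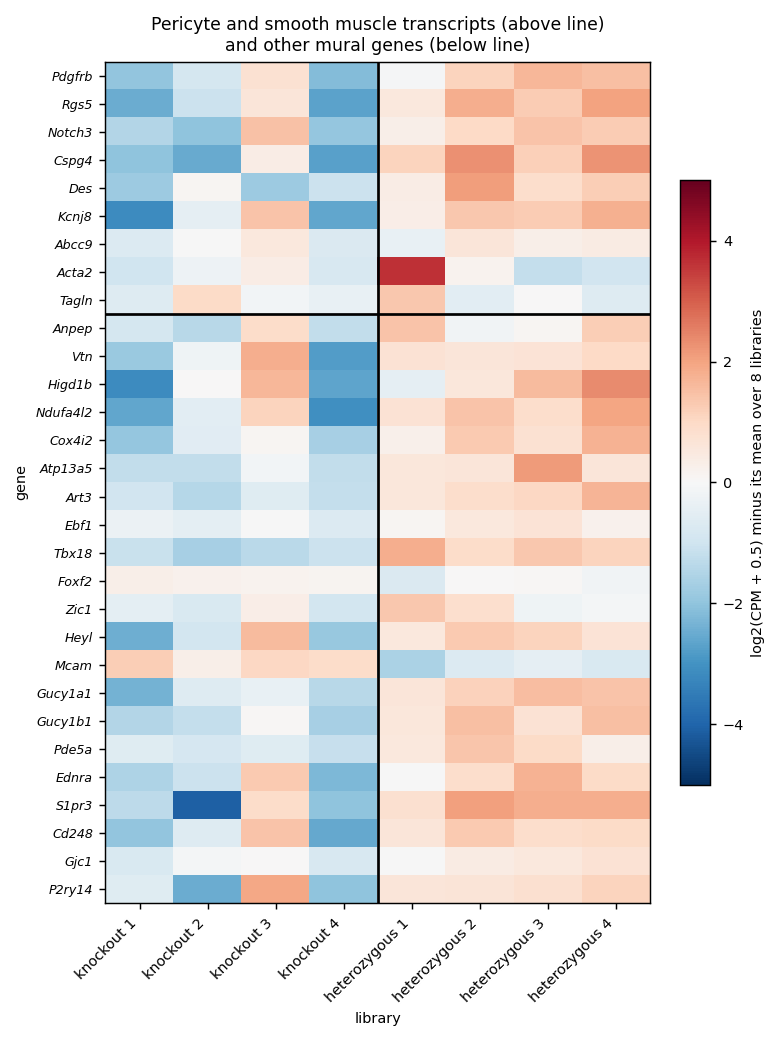
Heat map of log2(CPM + 0.5), centred on each gene's mean over the 8 libraries, for the 9 tested members (above the line) and the 21 tested genes of the wider mural set (below it); columns are libraries, knockout left of heterozygous. Most rows are low in knockout 1, 2 and 4, knockout 3 resembles heterozygous libraries for Kcnj8, Vtn and Notch3 but not for Tbx18 or Des, and Mcam runs the opposite way.

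Of 15 further genes of the contractile apparatus and its regulators, 14 had a row and 9 were tested; 0 were called at the adjusted threshold (median log2 difference -0.37). The most abundant were Smtn, smoothelin, at 414 ± 91.3 CPM in knockout and 436 ± 119 CPM in heterozygous libraries, and Tpm1, a tropomyosin, at 174 ± 27.7 and 164 ± 14.2 CPM (SD, n = 4 each). Myl9 was at 34.1 ± 28.8 CPM in knockout and 101 ± 19.6 CPM in heterozygous libraries without overlap (edgeR adjusted p = 0.0859), and Srf, the transcription factor that binds the CArG box, was at 43.3 ± 8.61 CPM in knockout and 27.8 ± 4.66 CPM in heterozygous libraries, also without overlap (edgeR adjusted p = 0.0761). Srf is named after its values were seen. Myocd, the coactivator that drives smooth muscle genes, was at 0 counts in all 8 libraries. A p that misses the threshold does not show that these genes were equal.

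Among 13 tested genes for signals that act between endothelium and mural cells, 3 rose and 1 fell (median log2 difference 0.38), beside 5.53% and 4.02% of all tested genes. Angpt2, the vessel-destabilising angiopoietin, had 1109, 282, 510 and 704 CPM in knockout and 19.1, 34.6, 52.5 and 33.4 CPM in heterozygous libraries (edgeR adjusted p = 8.45e-04). Hbegf, an EGF family ligand, averaged 233 ± 35.5 CPM in knockout and 99.4 ± 23.0 CPM in heterozygous libraries (edgeR adjusted p = 0.00507). Tgfb1, a ligand that promotes mural differentiation, rose by 0.82 ± 0.21 on the log2 scale (SE; edgeR adjusted p = 0.0377). Cxcl12, a chemokine, fell to 39.6 ± 8.29 CPM, against 74.3 ± 13.9 CPM in heterozygous libraries (edgeR adjusted p = 0.0198). Pdgfb, the ligand of the receptor encoded by Pdgfrb and named after its values were seen, was at 275 ± 23.4 CPM in knockout and 206 ± 51.2 CPM in heterozygous libraries (SD, n = 4 each). All knockout libraries lay above all heterozygous ones for Pdgfb, as for 9.7% of all genes, but Pdgfb was not called (edgeR adjusted p = 0.200).

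Markers of other brain and blood cells also differed between the genotypes, in patterns across libraries that were partly like and partly unlike that of the pericyte members. In summed CPM, knockout 3 was the highest knockout library for neuron, microglia and macrophage genes, but not for radial glia or erythroid genes. The neuron sum was highest in heterozygous 1, which had the lowest pericyte sum of the heterozygous libraries. Of 12 neuron genes 7 fell (median log2 difference -2.40); Dcx, Neurod2, Elavl3 and Tubb3 had the smallest p-values. Of 10 radial glia genes 4 fell (among them Pax6, Slc1a3 and Lhx2), of 12 microglia and macrophage genes 1 fell (Ctss), and of 5 tested erythroid genes 2 fell (the embryonic globins Hbb-y and Hba-x). In these lists 0 rose, and over all tested genes 4.02% were called lower and 5.53% higher. Fitted log2 fold changes were negative for all 12 neuron, 8 of 10 radial glia, all 12 microglia and macrophage and all 5 erythroid genes. Over all tested genes 52.1% were negative. The medians of the radial glia, microglia and macrophage, and erythroid lists were -1.92, -1.29 and -2.23, beside -1.79 for the tested members. The neuron sum of knockout 3, 263 CPM, lay only just below the lowest heterozygous sum, 274 CPM in heterozygous 2. By mean log2 CPM of the neuron genes, knockout 3 lay above that library (3.459 against 3.385). The erythroid sum of knockout 3, 25.9 CPM, lay far below the 238 to 611 CPM of the heterozygous libraries. Its pericyte and fibroblast sums did not lie below every heterozygous library. Its microglia and macrophage sum, 1018 CPM, lay within the heterozygous range of 595 to 1702 CPM. Of 3 tested X-inactivation and Y-linked genes 0 were called. How much of the mural difference goes with a general difference in co-sorted cells was not tested, and with the genotype differing in the same libraries these cannot be told apart.

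**Figure D4:**
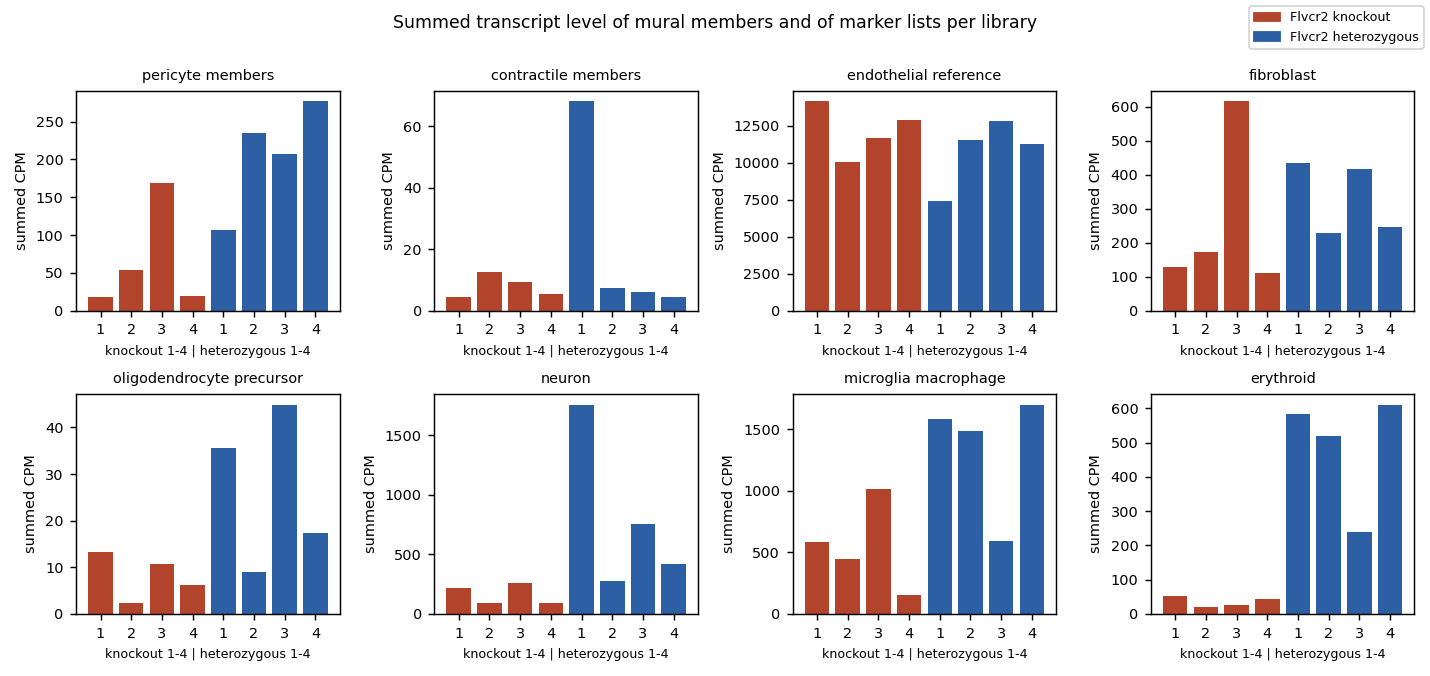
Summed CPM of the 7 pericyte members, the 3 contractile members and 6 marker lists in each library, with linear axes from 0 and knockout libraries 1 to 4 left of heterozygous libraries 1 to 4. Pericyte members reach 169 CPM in knockout 3, where fibroblast genes reach 615 CPM. Neuron genes are at 263 CPM there, just below the 274 CPM of heterozygous 2. Contractile members peak at 68.2 CPM in heterozygous 1.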

How the data were processed

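RNA from sorted endothelial cells was measured in 8 libraries (SMART-Seq v4 cDNA and Nextera XT libraries per the labels' protocols, read from 1 end at 50 nt). The authors deposited raw counts per gene symbol. The submitters' processing notes name TopHat2 0.7, Cufflinks 2.2.1 and mm10; the sources used here do not give the counting program or its strand setting. No mitochondrially encoded gene is listed. Groups and replicate numbers came from the sample titles.

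Counts were fitted in R 4.3.3 with edgeR 4.0.16: filterByExpr (minimum count 10, minimum total 15), TMM scaling, robust quasi-likelihood F-test without covariate, Benjamini-Hochberg adjustment over 13540 genes, threshold 0.05. SE is the log2 fold change divided by the square root of F. CPM used TMM-scaled sizes; log2 CPM a prior count of 2. Members and lists were chosen with earlier results of these data known. The rule for named genes took all members, up to 4 called genes by smallest p (otherwise the 2 most abundant) from each list, and the 5 nearest profiles; 2 genes it named are not reported here. In the lists, 1 member each of the contractile and erythroid lists had no row, and Gucy1a1, Gucy1b1, Mrtfb, Epb42 and Flvcr2 were matched by older symbols. Library pairs within a genotype differed beyond sampling noise (chi-square over its degrees of freedom was 28.9 or more). Figures used matplotlib 3.10.9. Alternatives were other scalings and filters, DESeq2 1.42.0, limma 3.58.1 voom, the replicate block and left-out libraries.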

Additional observations from a re-analysis of the deposited data

Results flagged for a closer look

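Of 21 groups of 4 libraries examined (each member and the sum of the members in each genotype), 3 had a library whose gap to the nearest other was, as a share of the group's range, above Dixon's 95% critical value. For independent, normally distributed values chance gives about 1 in 20 such groups. These groups share libraries and hold low counts on a linear scale, so that rate need not apply to them. Cspg4 in knockout 3 was at 6.38 CPM, far above the 0.317 to 0.818 CPM of the other knockout libraries. Notch3 in the same library was at 7.97 CPM, against 0.261 to 0.613 CPM in the other knockout libraries. Acta2 in heterozygous 1 was at 55.9 CPM, against 1.45 to 4.57 CPM in the other heterozygous libraries.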

How the results depend on the processing

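The 2 members called lower became 1 with scaling by endothelial genes, 0 without a low-count filter, 4 with DESeq2, 6 with limma voom and 6 with its sample weights, 4 with the replicate block, 0 without the Xist-poor library of each genotype (knockout 1 and heterozygous 2), 5 without heterozygous 1 and knockout 3 (added after seeing the data), 0 at an adjusted p under 0.01, and 0 to 5 when 1 library was left out (0 without knockout 1 or 4 or any heterozygous library, 1 without knockout 2, 5 without knockout 3). No member was called higher under any setting. The 6 wider mural genes called lower became 13 with voom, 16 with sample weights, 3 with the replicate block, 0 without the Xist-poor libraries, 14 without heterozygous 1 and knockout 3, 2 at 0.01, and 2 to 15 with 1 library left out. Genes called lower numbered 1117 with DESeq2, 1080 with voom sample weights, 120 without the Xist-poor libraries, 956 at 0.1, 94 at 0.01 and 208 to 640 with 1 library left out; genes called higher numbered 259 with endothelial scaling, 1186 with sample weights, 433 with the replicate block, 180 without the Xist-poor libraries, 492 without heterozygous 1 and knockout 3, 1125 at 0.1, 258 at 0.01 and 371 to 715 with 1 library left out. With library size alone 725 were lower and 539 higher, and with endothelial scaling 422 were lower and 259 higher; these scalings put the median of all genes at -0.15 and -0.24, beside -0.03 with TMM (log2). The cause was not tested.

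Directions of Pdgfrb, Rgs5, Cspg4, Kcnj8, Abcc9, Des and Notch3 were negative under all settings run. Without heterozygous 1 the log2 fold change of Acta2 was 0.24 and that of Tagln 0.49; with 1 library left out they ran from -2.77 to 0.24 and from -0.74 to 0.49, and without heterozygous 1 and knockout 3 together Tagln was at 0.58. DESeq2 also called Pdgfrb and Rgs5 (adjusted p = 0.0183 and 0.0314) and gave no adjusted p for Acta2. The log2 ratio of summed member CPM, -1.64, ran from -2.58 to -1.34 with 1 library left out. With a minimum of 20 CPM, 2 of the 5 nearest profiles were shared, and the CArG box with 1 outer mismatch matched 2 windows in place of 0. Deviations from the group mean correlated at 0.06, 0.21, -0.05 and 0.02 between samples with the same replicate number, for numbers 1 to 4. Between samples with different numbers they ran from -0.15 to 0.15. With so few libraries these values do not settle whether the numbers pair libraries, and the main fit left them unpaired. Depth limits Myh11, and Notch3 in 3 knockout libraries. The 2 called members also rested on low counts in knockout libraries 1 to 4: 16, 5, 112 and 11 for Cspg4, and 8, 33, 7 and 35 for Des. The same holds for Tbx18 of the wider set, with 7, 1, 4 and 13.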
